A study of Mus musculus with 12 samples.

Results

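Imprinted genes are expressed from the copy inherited from 1 parent. At many of these genes, the silent or active state of each copy follows DNA methylation laid down in the egg or the sperm. This methylation lies at a differentially methylated region (DMR) and has to survive the wave of demethylation after fertilisation. ZFP57 is a DNA-binding protein of the KRAB zinc finger family that is known to recognise the methylated copy of such regions through the hexamer TGCCGC with a methylated CpG. Its KRAB domain binds the corepressor KAP1, also called TRIM28, which in turn brings enzymes that deposit H3K9me3 and maintain DNA methylation. The loci described here are 7 windows of the mouse genome (mm9) around imprinted genes, grouped under the working name of promoter DMRs of single genes. The name is loose, since the Cdh15 DMR is known to lie inside the gene and the Peg10 DMR to act on neighbouring genes too. Peg10, Mest, Plagl1, Impact and Slc38a4 are paternally expressed genes, and Cdh15 and Fkbp6 are less classical members.

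The members are the peaks that overlapped those windows in the 4 lists of called peaks for ZFP57 and KAP1. The windows were chosen by gene, without reference to peak values, but with earlier results of these data known. They held 22 of 13716 peaks. The lists came from chromatin immunoprecipitation with sequencing in wild-type embryonic stem cells of the A3 line (strain 129X1/SvJ) and the E14 line (strain 129P2/OlaHsd), grown without feeder cells in serum and leukemia inhibitory factor, with more serum for E14 and added non-essential amino acids for A3. Each list is 1 library, so no value has a replicate error, A3 and E14 are compared as libraries and not as strains, and strain, culture medium and library cannot be told apart. H3K9me3, the inputs and the A3 cells lacking Zfp57 were not analysed here. The lists hold positions alone, with no enrichment or methylation, so presence, width and midpoint are the readouts. The working name was not checked against methylation or mm9 gene models, and the identity of the cells could not be checked against markers.

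The promoters of 5 of the 7 genes were matched in RefSeq sequences of the build GRCm38.p6, at 10 start sites, and are shown because ZFP57 is known to read the hexamer printed in capitals (TGCCGC, or GCGGCA where it lies on the other strand). Each sequence runs 5′ to 3′ on the strand of the gene and holds the 250 bases before the start. The peaks are in mm9, so where these bases lie relative to a peak was not determined. They are Plagl1 at chr10:13090582-13090831 (+), the second of 3 Mest starts at chr6:30737800-30738049 (+), the first of 2 Fkbp6 starts at chr5:135350045-135350294 (-), Cdh15 at chr8:122848124-122848373 (+) and the first of 3 Slc38a4 starts at chr15:97055957-97056206 (-).
Plagl1: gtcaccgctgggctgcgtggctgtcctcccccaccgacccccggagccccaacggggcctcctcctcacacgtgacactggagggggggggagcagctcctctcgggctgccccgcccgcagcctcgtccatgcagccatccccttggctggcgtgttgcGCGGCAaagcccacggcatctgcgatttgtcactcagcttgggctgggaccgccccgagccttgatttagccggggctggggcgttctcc
Mest: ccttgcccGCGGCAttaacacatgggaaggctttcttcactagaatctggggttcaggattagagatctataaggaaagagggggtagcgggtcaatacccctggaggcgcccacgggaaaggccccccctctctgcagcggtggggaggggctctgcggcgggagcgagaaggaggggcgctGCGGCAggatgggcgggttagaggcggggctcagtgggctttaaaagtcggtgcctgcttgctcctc
Fkbp6: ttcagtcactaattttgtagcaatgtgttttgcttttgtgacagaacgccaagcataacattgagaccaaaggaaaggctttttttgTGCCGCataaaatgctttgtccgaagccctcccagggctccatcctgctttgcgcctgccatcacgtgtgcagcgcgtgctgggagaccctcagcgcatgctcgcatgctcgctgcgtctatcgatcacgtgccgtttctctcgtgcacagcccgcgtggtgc
Cdh15: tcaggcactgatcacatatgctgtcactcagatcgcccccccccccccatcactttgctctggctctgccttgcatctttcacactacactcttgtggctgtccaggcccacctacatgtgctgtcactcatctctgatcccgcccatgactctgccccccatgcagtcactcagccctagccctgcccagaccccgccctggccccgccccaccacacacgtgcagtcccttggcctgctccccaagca
Slc38a4: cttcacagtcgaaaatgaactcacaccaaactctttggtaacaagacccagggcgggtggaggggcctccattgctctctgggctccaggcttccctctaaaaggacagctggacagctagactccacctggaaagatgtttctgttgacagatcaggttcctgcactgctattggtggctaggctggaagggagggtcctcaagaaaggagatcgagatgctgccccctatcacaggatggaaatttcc

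Peg10, Plagl1, Cdh15 and Fkbp6 carried ZFP57 and KAP1 in both lines, Mest lacked only the A3 ZFP57 call, Impact was called in E14 alone, and Slc38a4 had no peak in any list. ZFP57 was therefore called at 4 of the 7 loci in A3 and at 6 of 7 in E14, where 1.39% and 0.571% of all 25 kb windows of the genome held a peak of those lists. KAP1 was called at 5 of 7 loci in A3 and 6 of 7 in E14, against 8.69% and 1.25% of such windows. A site, the union of overlapping peaks, was called in all 4 lists at 4 of the 7 loci, against 0.0388% of 25 kb windows with a peak in all lists and 0.296% of the 12833 sites in the genome. At least 1 peak was present at 6 loci, against 10.8% of windows. The Slc38a4 window spans 30 kb and the others 25 kb.

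Peaks of the 2 proteins lay at the same place. All 4 A3 ZFP57 peaks at the loci overlapped an E14 ZFP57 peak, where 3.77% of the whole A3 list did, and 4 of the 6 E14 ZFP57 peaks overlapped an A3 one, against 9.30% of the E14 list. All 4 A3 ZFP57 peaks overlapped A3 KAP1 (4.24% of the list did) and all 6 E14 ZFP57 peaks overlapped E14 KAP1 (26.6% of the list). For KAP1, 5 of the 6 A3 peaks overlapped an E14 peak, against 5.96% of the A3 list, and 5 of the 6 E14 peaks overlapped an A3 peak, against 46.0% of the E14 list. Of the 22 peaks, 21 thus fell into 6 sites of several lists, 1 per occupied locus, and the remaining peak was a second A3 KAP1 peak at Cdh15. The loci are named for imprinting and were chosen with earlier results of these data known. These shares therefore describe them and were not tested against the rest of the genome.

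**Figure D1:**
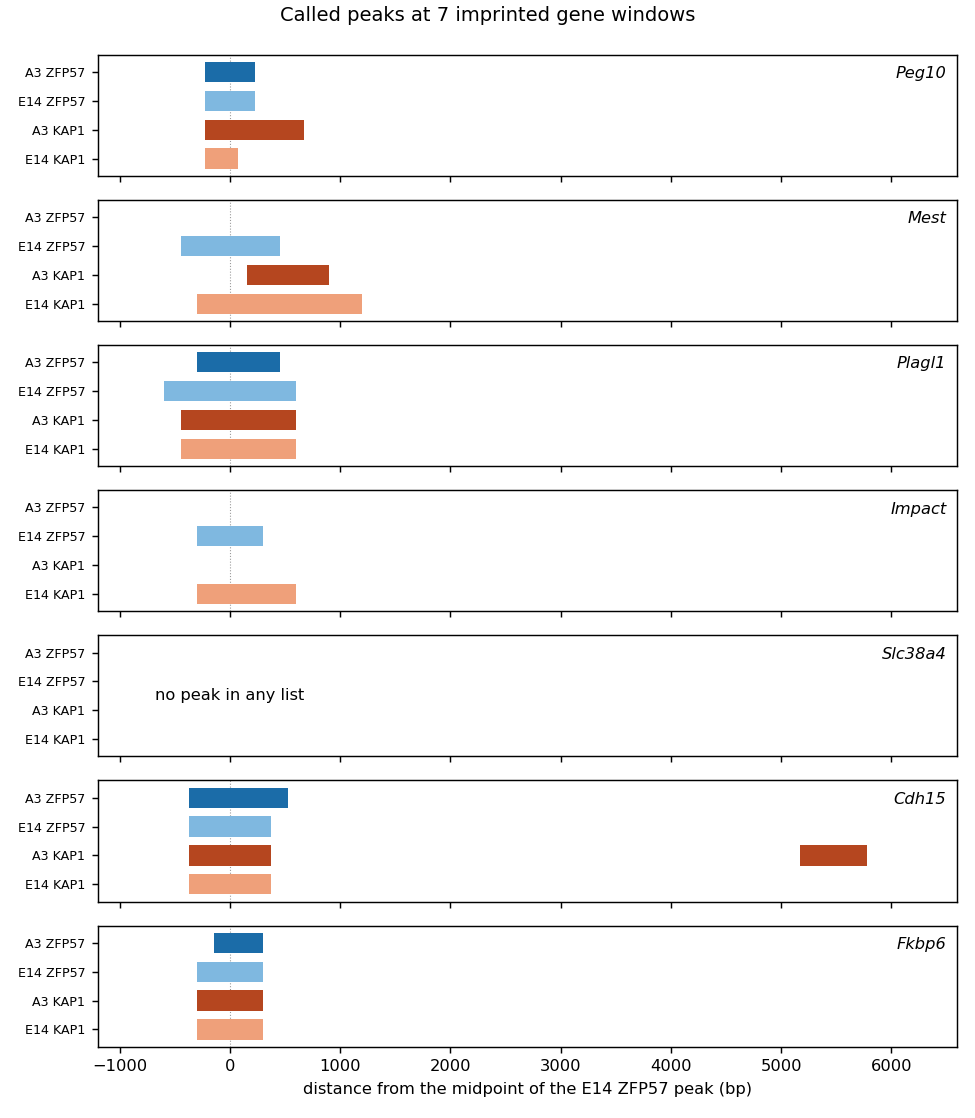
Called peaks at the 7 loci, 1 row per list, drawn to scale as distance in bp from the midpoint of the E14 ZFP57 peak (0, dotted line); each bar is 1 peak after merging. Bars overlap at 6 loci, the A3 ZFP57 row is empty at Mest, both A3 rows are empty at Impact, Slc38a4 has no peak, and Cdh15 has a further A3 KAP1 peak 600 bp wide.

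Peg10, a retrotransposon-derived gene needed for the placenta, lies on chromosome 6 and shares its promoter region with Sgce. ZFP57 was called at 4697701 to 4698150 in A3 and at exactly the same 450 bp in E14, with the midpoint at 4697925.5. The KAP1 peaks began at the same base but ended apart, with 900 bp in A3 (midpoint 4698150.5) and 300 bp in E14 (midpoint 4697850.5). This was the largest difference in width between the KAP1 lists at a site called in all lists here, and the E14 KAP1 peak was as narrow as any in its list. The 300 bp from 4697701 to 4698000 was common to all lists. The A3 KAP1 peak was among the widest 11.6% of its list, whereas 46.0% of A3 ZFP57 and 57.5% of E14 ZFP57 peaks were at least as wide as the Peg10 ones.

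Plagl1 encodes a zinc finger transcription factor, also known as Zac1, and lies on chromosome 10. Its site had the widest ZFP57 peak of the loci in E14, 1200 bp at 12810151 to 12811350, and a narrower one of 750 bp in A3 at 12810451 to 12811200. The KAP1 peaks were identical in both lines, 1050 bp at 12810301 to 12811350. The midpoints of the A3 ZFP57 peak and both KAP1 peaks coincided at 12810825.5, and that of the E14 ZFP57 peak lay at 12810750.5. All 4 peaks were wide for their lists: 8.75% of A3 ZFP57, 2.99% of E14 ZFP57, 6.23% of A3 KAP1 and 2.47% of E14 KAP1 peaks were at least as wide.

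Cdh15 encodes M-cadherin, an adhesion protein of muscle cells, on chromosome 8. The E14 ZFP57, A3 KAP1 and E14 KAP1 peaks were the same 750 bp, 125388751 to 125389500, with the midpoint at 125389125.5. The A3 ZFP57 peak began at the same base and reached 125389650, for a width of 900 bp and a midpoint of 125389200.5. It was the widest A3 ZFP57 peak at the loci, and 4.44% of that list was at least as wide. A second A3 KAP1 peak of 600 bp lay at 125394301 to 125394900, with no peak of another list on it; 9644 sites of the genome were called in A3 KAP1 alone.

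Fkbp6 encodes an immunophilin needed in male germ cells and lies on chromosome 5. The E14 ZFP57, A3 KAP1 and E14 KAP1 peaks were again identical, 600 bp at 135825601 to 135826200 with the midpoint at 135825900.5. The A3 ZFP57 peak, at 135825751 to 135826200, was shorter by 1 step of 150 bp and had its midpoint at 135825975.5. At 450 bp it was 1 of the 2 narrowest A3 ZFP57 peaks at the loci, with Peg10. Cdh15 and Fkbp6, the less classical members, thus had the same calls in all lists as Peg10 and Plagl1.

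Mest encodes a protein of the alpha/beta hydrolase fold, also known as Peg1, on chromosome 6. ZFP57 was called in E14 at 30687151 to 30688050, 900 bp wide (midpoint 30687600.5), and was not called in A3, where the nearest ZFP57 peak lay 125 kb from the site. KAP1 was called in both lines, at 30687751 to 30688500 in A3 (750 bp, midpoint 30688125.5) and in E14 as a pair of touching peaks, 30687301 to 30687900 and 30687901 to 30688800, which together span 1500 bp (midpoint 30688050.5). With this pair merged, the KAP1 midpoints lay 75 bp apart. The E14 ZFP57 midpoint lay 450 bp from that of merged E14 KAP1 and 525 bp from that of A3 KAP1. These were the largest offsets between lists at any of the 6 sites, but the 450 bp depends on the merging. As deposited, the E14 KAP1 midpoints were 30687600.5, the same as that of E14 ZFP57, and 30688350.5. The A3 KAP1 peak covered 33.3% of the E14 ZFP57 peak. In the genome, 42 sites had this set of calls, called for KAP1 in A3 and E14 and for ZFP57 only in E14.

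Impact encodes an inhibitor of the kinase GCN2, a sensor of amino acid shortage, and lies on chromosome 18. E14 had a ZFP57 peak of 600 bp at 13131451 to 13132050 (midpoint 13131750.5) and a KAP1 peak of 900 bp at 13131451 to 13132350 (midpoint 13131900.5). A3 had no peak in the window, and its nearest peaks lay 68.3 kb away for KAP1 and 795 kb away for ZFP57. The E14 KAP1 peak was wide for its list, where 3.82% of peaks were at least as wide. For the E14 ZFP57 peak this share was 29.1%. Sites called for both proteins in E14 and for neither in A3 numbered 66 in the genome. A peak that is not called may still have signal below the threshold of the caller, which the lists do not show.

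Slc38a4 encodes an amino acid transporter and lies on chromosome 15. No list had a peak between 96870000 and 96900000. The nearest peaks lay 299 kb from the window in A3 KAP1, 456 kb in E14 KAP1, 556 kb in E14 ZFP57 and 3625 kb in A3 ZFP57. With positions alone, no level of signal can be given there.

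Peaks at the loci were mostly wider than usual for their lists. In A3 ZFP57 the 4 peaks ranged from 450 to 900 bp with a median of 600 bp, where the list had a median of 300 bp. That list median is also its narrowest width, so no A3 ZFP57 peak could lie below it. In E14 ZFP57 the 6 peaks ranged from 450 to 1200 bp with a median of 675 bp, against 450 bp. The 6 A3 KAP1 peaks ranged from 600 to 1050 bp with a median of 750 bp, against 600 bp. After merging, the 6 E14 KAP1 peaks ranged from 300 to 1500 bp with a median of 825 bp, against 450 bp. The 1500 bp peak is the merged pair at Mest, deposited as 600 and 900 bp. Of the 22 peaks, 18 exceeded the median of their list, 3 equalled it and 1, the E14 KAP1 peak at Peg10, was narrower. Because many widths are tied, 46.0% of all A3 ZFP57 and 29.1% of all E14 ZFP57 peaks exceeded the median. For KAP1 these shares were 23.2% in A3 and 25.6% in E14. Width depends on depth and on the threshold of the caller, so it is compared within a list and not read as an amount of bound protein.

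**Figure D2:**
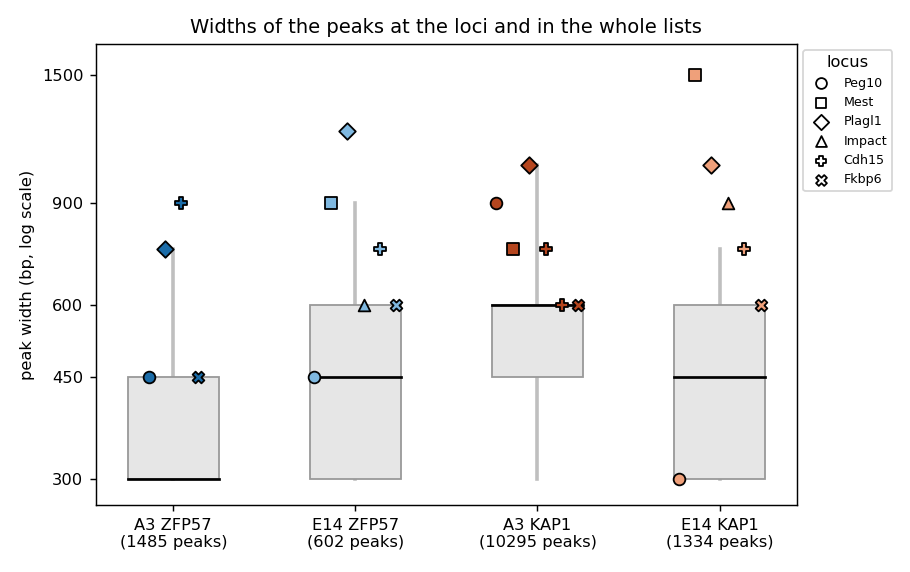
Width in bp (log axis) of each peak at the loci after merging (symbols, 1 per locus and peak) over the whole list (grey box: 25th to 75th percentile, black line: median, grey line: 5th to 95th percentile). In every list but E14 KAP1 the symbols lie at or above the median, and in E14 KAP1 the Peg10 peak of 300 bp lies below it. The A3 ZFP57 median of 300 bp is also the narrowest width of that list, so no peak could lie below it.

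Neither line had the wider ZFP57 peak throughout. Of the 4 loci with ZFP57 in both lines, the E14 peak was wider at Plagl1 and Fkbp6, equal at Peg10 and narrower at Cdh15. Over all 56 pairs of overlapping ZFP57 peaks of the lines, E14 was wider in 14, equal in 31 and narrower in 11. The KAP1 widths were equal in both lines at Plagl1, Cdh15 and Fkbp6, larger in A3 at Peg10 and larger in E14 at Mest. The Mest E14 peak is the merged pair, deposited as 600 and 900 bp, against 750 bp in A3. Over all 614 pairs, by contrast, the E14 peak was narrower in 333 and equal in 230. Midpoints lay close together, as did those of overlapping peaks in the whole lists. Over the 28 pairs of lists that shared a site, the distance had a median of 75 bp and was at most 150 bp in 23. Since positions move in steps of 150 bp, most of these distances are below what the lists resolve. The exceptions were 3 pairs with the A3 KAP1 peak of Peg10, at 225 to 300 bp, and the ZFP57 peak of Mest against both KAP1 peaks. At Mest the E14 KAP1 peak is the merged pair, and 1 of its deposited parts had the same midpoint as E14 ZFP57. Over all overlapping pairs, 98.2% lay within 150 bp between the ZFP57 lists and 96.9% between the KAP1 lists. The share was 92.1% for A3 ZFP57 with A3 KAP1 and 93.2% for E14 ZFP57 with E14 KAP1. In the same order, the loci had 4 of 4, 4 of 5, 3 of 4 and 5 of 6 pairs in that range. Close midpoints are therefore not read as particular to these loci.

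Neighbouring peaks were few in the shorter lists. No other E14 ZFP57 peak lay within 500 kb of any of the 6 sites, which was also true of 71.1% of all E14 ZFP57 peaks, and the nearest ranged from 549 kb at Peg10 to 3402 kb at Plagl1. E14 KAP1 had 1 other peak in that range, 376 kb from the Peg10 site, and none around the other 5 sites, where 47.5% of the list had none. A3 ZFP57 had no other peak in that range at its 4 sites, where 41.9% of the list had none, and it had 1 peak 125 kb from the Mest site. A3 KAP1, the longest list with 10295 peaks, had from 2 others at Mest and Impact to 14 at Fkbp6 outside the windows, and 3.79% of that list had none. Nothing particular to the sites is read from these distances.

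The same lists were read at 15 other imprinted control regions in 25 kb windows: 6 maternally methylated regions of clusters (Peg3, Snrpn, Kcnq1ot1, Airn, Grb10 and Nespas), 3 paternally methylated ones (H19, Meg3 IG and Rasgrf1) and 6 regions inside introns of host genes (Nnat, Mcts2, Inpp5f_v2, Nap1l5, Zrsr1 and Peg13). The positions of these windows came from general knowledge of mm9 and were not checked against an annotation, so a count below 15 could include a misplaced window. E14 ZFP57 and E14 KAP1 were called at all 15, so Slc38a4 was the exception among the 22 regions looked at. A3 ZFP57 was called at 9 of the 15, against 4 of the 7 single-gene loci, and A3 KAP1 at 10 of 15 against 5 of 7. The calls of Impact recurred at Airn, Grb10, H19, Mcts2 and Nap1l5, with both proteins in E14 and neither in A3, and those of Mest recurred at Zrsr1. The single-gene loci held 4 of the 38 sites of the genome called in all lists, and the 3 other sets held 4, 2 and 3. Of the widest peak per locus, the median for A3 ZFP57 was 600 bp at the single-gene loci and 750, 675 and 750 bp at the cluster, paternal and intronic regions. In the same order the medians were 675, 600, 600 and 975 bp for E14 ZFP57, 750, 975, 675 and 1125 bp for A3 KAP1, and 825, 750, 750 and 1050 bp for E14 KAP1. The single-gene loci were thus lowest in A3 ZFP57 and neither lowest nor highest in the other lists. In the same order, the A3 ZFP57 medians rest on only 4, 4, 2 and 3 loci, with widths in steps of 150 bp. These ranks are therefore not read as a trait of any set. The sets were not tested against each other, because all were chosen with these results known.

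**Figure D3:**
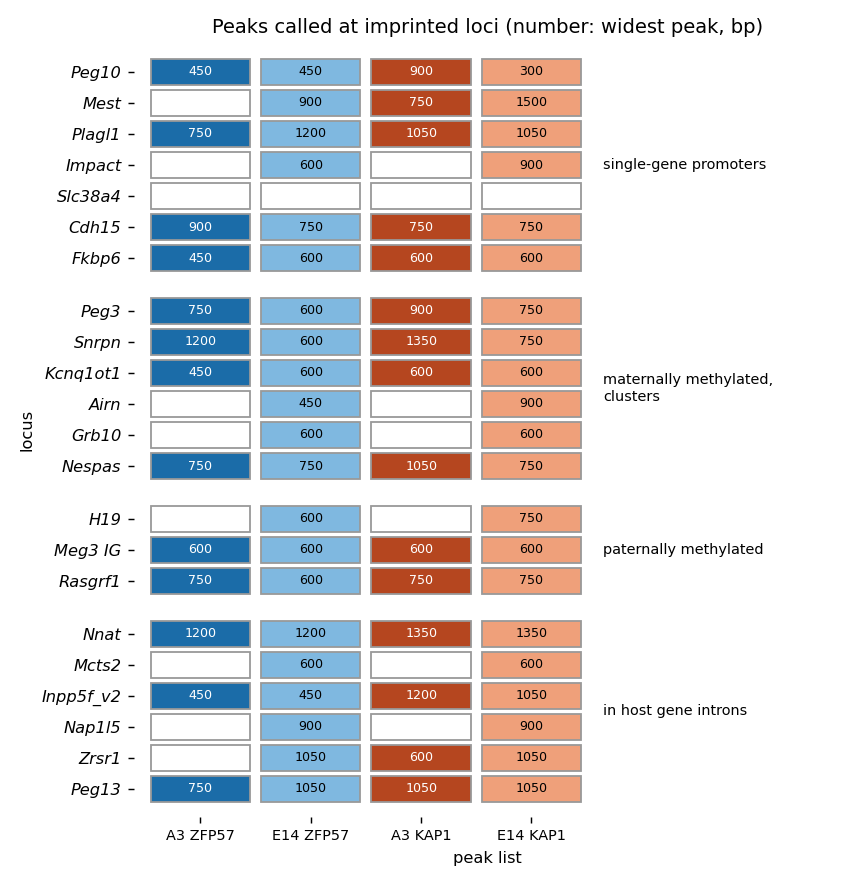
Calls at the 7 single-gene loci (top block) and 15 other imprinted control regions, 1 row per locus and 1 column per list; a filled cell is a called peak with the width in bp of the widest one, an empty cell no call. The E14 columns are filled at every locus but Slc38a4, and the A3 ZFP57 column is filled at 4 of 7 and 9 of 15.

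In the promoter sequences, the hexamer was found at Plagl1, at Mest and at Fkbp6. It was searched as TGCCGC on both strands in the 250 bases before each start, and 8.68% of the 32851 promoters in the table held it. Plagl1 had 1 match, at base 161 counted from the 5′ end. The second Mest start had 2, at bases 9 and 184, where 0.874% of promoters had at least 2, and the third start, 3 bases away, held the same matches, while the first Mest start had none. The Fkbp6 starts had 1 match each, at base 88 for the first and base 165 for the second. Cdh15, called in all lists, had none, and neither did any of the 3 starts of Slc38a4, which had no peak.

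Matches followed CpG content over the whole table, and the starts of these genes differed in it. Promoters with 10 to 19 CpG held the hexamer in 12.7% of cases and those with 20 to 29 in 20.8%, against 1.49% of those with 0 to 4 and 6.16% of those with 5 to 9. Plagl1 had 19 CpG, the second Mest start 14, and the Fkbp6 starts 17 and 29. The starts without a match had 7 at Mest, 5 at Cdh15 and 3 to 5 at Slc38a4. A match is a description of the letters and not a bound site, and the absence of these letters from the window says nothing of binding elsewhere in the locus.

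**Figure D4:**
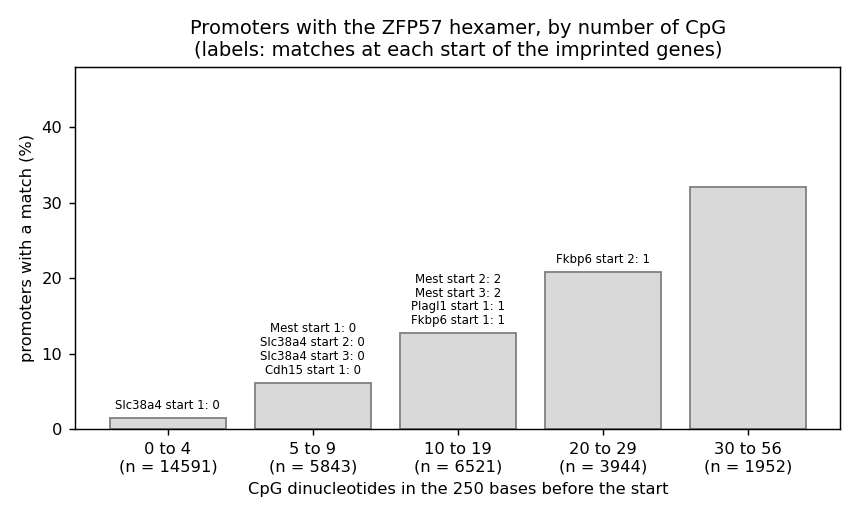
Share of RefSeq promoters with the hexamer in the 250 bases before the start (bars, in %), by number of CpG dinucleotides (x axis, with the number of promoters); labels place each start of the imprinted genes in its class with its number of matches. All 5 starts with a match lie in the classes from 10 CpG up, and the 5 without lie below. The CpG of a match is itself counted.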

How the data were processed

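Of the 12 ChIP-seq libraries in the labels, 4 were analysed (A3 and E14, wild type, each with ZFP57 and KAP1), with 1 library per group, so no test across samples was made. The deposited files hold, per library, the peaks called by the authors as chromosome, start and end in mm9, with no score. Tools listed in the submitters' processing notes are bedtools 2.14.3-1, SAMtools 0.1.18, Bowtie 0.12.7 and CASAVA 1.8.2. Peak caller, threshold and use of input: not given in the sources used here. Depth is unknown. Every peak begins 1 base after, and ends at, a multiple of 150, and coordinates were taken as 1-based with steps of 150 bp.

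Peaks that touched or overlapped within a list were merged, which took 58 peaks out of 13774 and joined 1 pair at the loci. Overlap meant at least 1 bp. Background shares used consecutive 25 kb windows of each chromosome up to its last peak. All 7 loci are named. Members, comparison regions and the hexamer were chosen with earlier results of these data known. The comparison windows were placed from general knowledge of mm9, unchecked against any file. Overlaps of simulated peaks were checked with bedtools 2.31.1. Python 3.11.15, pandas 2.3.3 and matplotlib 3.10.9 were used. The alternatives were other windows, peak widths and overlap rules.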

Additional observations from a re-analysis of the deposited data

How the results depend on the processing

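Of 56 alternative values of the 8 counts of loci, 52 equalled the count reported, 4 were lower and 0 higher. The 4 lower ones all came from Peg10. With only peaks wider than the narrowest width of 300 bp, E14 KAP1 was called at 5 loci, ZFP57 and KAP1 overlapped in E14 at 5, and a site was called in all lists at 3. With a reciprocal overlap of 50% between every pair of lists, that last count was also 3. The middle 10 kb of each window, windows widened by 25 kb on both sides, peaks wholly inside the window, peaks within 1 kb and, chosen after seeing the data, unmerged peaks and no peaks over 1500 bp changed none of the counts they were run on. Widths and midpoints were not rerun under these alternatives, and the E14 KAP1 width and midpoint at Mest rest on the merging. No paired analysis was possible because each group has 1 library and the counts come from no test. Signal below the threshold of the caller, and so the absent calls at Mest, Impact and Slc38a4, could not be examined.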
